A study of Mus musculus with 4 samples.

Results

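The members were 10 imprinted genes with roles in growth: H19, Igf2, Meg3, Peg3, Mest, Cdkn1c, Grb10, Ndn, Plagl1 and Dlk1. They were chosen by name, with their FPKM in these 4 libraries already known, H19 first among them, so all of their values are a description and none is a test. All 10 of 10 were found among the 54446 genes measured. FPKM, the fragments counted per kilobase of exon and scaled by the depth of the library, was above 0 in all 4 libraries for 8 of the 10, against 17787 of all genes. Igf2 and Dlk1 were listed at 0 in some libraries and were left out of the counts of changed genes.

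Baicalin is a flavone glucuronide of Scutellaria roots, and the study asked how the mRNA of mammary epithelial cells differs after treatment with it. Cells of the mammary gland of wild type C57BL/6 mice were separated by FACS into a basal and a luminal population and grown as 3D cultures in growth factor-reduced Matrigel, under a medium with EGF and ITS, a mix of insulin, transferrin and selenium. Each population received either DMSO, the solvent control, or 100 μM baicalin. This gave 4 libraries, 1 library per group, named here as labelled basal or labelled luminal with DMSO or with baicalin. The libraries held 19853603 and 20283068 counted fragments under the basal label and 19356106 and 20648787 under the luminal label, with DMSO and with baicalin, so that 1 fragment on a gene with 1 kb of exon was worth 0.0484 to 0.0517 FPKM. Glands were taken in general from female mice of 6 to 9 weeks, or at other stages, and neither the age nor the number of animals behind these libraries is given. Antibodies against CD24, CD29, Procr and Sca1 were listed for cell labelling. Also listed were antibodies against CD31, CD45 and TER119, which mark endothelial, immune and red blood cells. With 1 library per group there was no replicate check on any difference, and no p-value is given.

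The labels went against most of the markers of basal and luminal cells. Of 12 basal markers, all 12 were higher in the libraries labelled luminal than in those labelled basal, with DMSO and with baicalin alike. With DMSO the largest differences were those of Acta2, Tagln and Krt5, at 6.00, 5.09 and 3.97 on the log2 scale. The summed FPKM of the basal list was 1778 with DMSO and 482 with baicalin in the libraries labelled basal, and 5491 and 7241 in those labelled luminal, with Krt14 as its most abundant gene. Of 10 luminal markers, all 10 were lower in the DMSO library labelled luminal, led by Krt7 at -3.22, Cldn4 at -2.55 and Krt18 at -2.24, and in the baicalin pair 9 of 10 were lower under the luminal label, all but Cdh1. Their sum, with Krt8 as its most abundant gene in all libraries but the one labelled basal with baicalin, where it was Krt18, was 4762 and 3392 FPKM under the basal label and 1594 and 1405 FPKM under the luminal label. Markers of hormone-sensing luminal cells ran in part with the labels. With DMSO, 5 of 8 had more FPKM under the luminal label: Cited1 at 2.98, Foxa1 at 1.88, Pgr at 1.48, Wnt4 at 0.45 and Esr1 at 0.29. The others were lower there: Areg at -1.52, Prlr at -1.14 and Ly6a at -0.83. With baicalin 4 of these 8 were higher under the luminal label: Ly6a, Pgr, Wnt4 and Cited1. Foxa1 and Esr1 were then lower there, at -0.17 and -0.20, as were Areg and Prlr. All 4 libraries are part of the mismatch, so no result could be given without them, and each value is named by the label of its library and not by a cell type.

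Imprinted genes are expressed mainly from either the maternal or the paternal copy, because DNA methylation laid down in the egg or the sperm is kept at control regions near them. Many act on growth before birth: paternally expressed genes such as Igf2 tend to promote it, while maternally expressed genes such as H19, Cdkn1c and Grb10 tend to restrain it. In the mammary gland H19 is known to respond to steroid hormones, and Peg3 is known for its part in milk release and maternal care. FPKM does not separate the parental copies, so imprinting itself was not measured here.

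Changes are given as log2((a + 1)/(b + 1)) of the FPKM values, a scale on which genes of low FPKM move less than their ratio does, and a gene was called when it lay more than 1 from 0 on this scale. In the libraries labelled basal, 3 of the 8 members tested rose with baicalin (Cdkn1c, Grb10 and Peg3) and 1 fell (H19). Over all 17787 genes tested, 2.15% rose and 3.33% fell. In the libraries labelled luminal, none of the 8 members rose and 1 fell (H19), against 2.37% and 1.59% of all genes. Fewer cells that express a gene and less RNA of it per cell cannot be told apart in these bulk samples. Since the members were chosen with these values known, nothing is read from the counts beside the shares.

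Between the labels, the members fell into opposite groups. With DMSO, Mest and Plagl1 were higher in the library labelled luminal and Peg3 and Grb10 were lower, which made 2 and 2 of 8 members past the threshold, against 4.71% and 3.86% of all genes. With baicalin, Mest and Plagl1 were again higher, and Peg3, Grb10 and Cdkn1c were lower, which made 2 and 3 of 8, against 5.24% and 2.99% of all genes. The members nearest to the threshold were, for baicalin under the basal label, Peg3 inside at 1.13 and Mest outside at 0.74. For the luminal label they were H19 inside at -1.01 and Grb10 outside at 0.99. Between the labels, Plagl1 lay inside at 2.15 and H19 outside at -0.86 with DMSO, and Mest inside at 1.11 and H19 outside at 0.87 with baicalin.

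**Figure D1:**
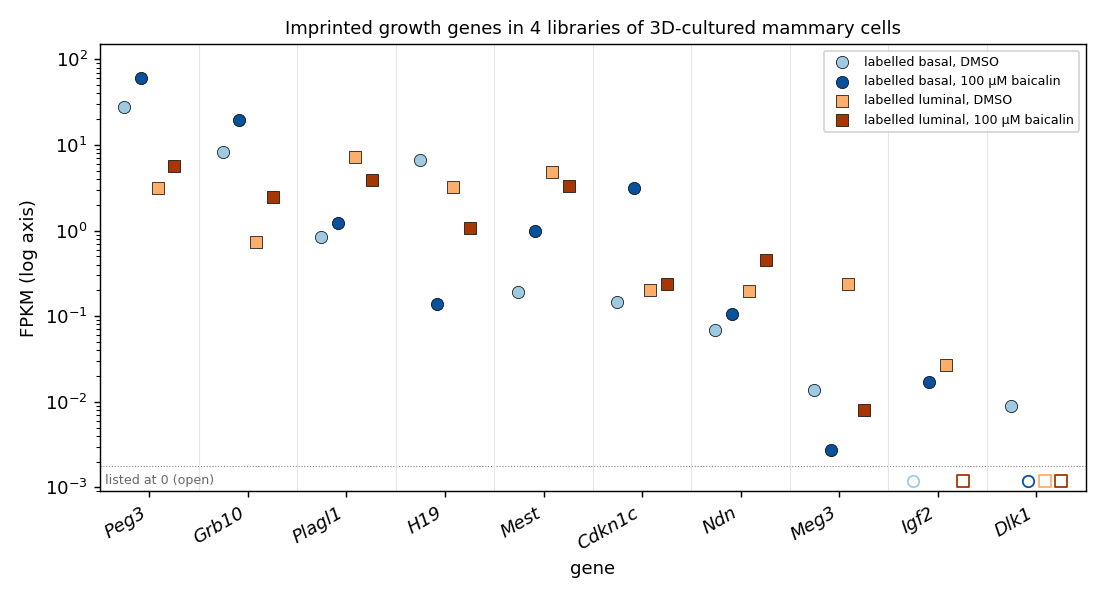
FPKM of the 10 members on a log axis in the 4 libraries, 1 point per library, with circles for libraries labelled basal and squares for those labelled luminal; open symbols at the bottom stand for values listed at 0. Peg3 reached 61.1 FPKM in the library labelled basal with baicalin, while Igf2 reached at most 0.0271 FPKM and Dlk1 0.0089 FPKM.

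H19 is a maternally expressed long noncoding RNA, known to restrain growth and to be the source of miR-675. H19 (ENSMUSG00000000031, GRCm38 chromosome 7, 142575529 to 142578143, minus strand, 2460 bases of exon) stood at 6.63 FPKM with DMSO and 0.140 FPKM with baicalin in the libraries labelled basal, and at 3.19 and 1.08 FPKM in those labelled luminal. These values rest on 324, 7, 152 and 55 fragments. H19 was thus highest in the library labelled basal with DMSO and lowest in the library labelled basal with baicalin. Between them lay the libraries labelled luminal, with more H19 with DMSO than with baicalin. It lay above 61.5% of the tested genes in the library labelled basal with DMSO and above 12.6% with baicalin. The shares were 47.0% and 32.3% under the luminal label.

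With baicalin H19 fell by 2.74 on the log2 scale in the libraries labelled basal, where its FPKM was 47.3-fold lower, a ratio of 0.0211 with an exact Clopper-Pearson 95% interval of 0.00844 to 0.0441. Each interval given here covers the error of counting and nothing else. It also fell in the libraries labelled luminal, by 1.01, and was 2.95-fold lower, a ratio of 0.339 (95% interval 0.245 to 0.465). That second call lay at the edge of the threshold: after centring all changes on their median it was -0.99 and was lost. H19 differed between the labels by less than the threshold, with -0.86 for luminal against basal with DMSO and 0.87 with baicalin, on ratios of 0.481 (95% interval 0.394 to 0.585) and 7.72 (95% interval 3.51 to 20.1). Both differences passed the threshold with 0.1 FPKM or none added and with TPM.

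Other markers were lower in the same libraries as H19. Under the basal label 11 of 12 basal markers were lower with baicalin, 5 of them past the threshold, led by Krt5 at 42.6-fold, Trp63 at 19.7-fold and Vim at 6.83-fold lower FPKM. Of 11 fibroblast markers 10 were lower there, with Postn past the threshold. Of the luminal, alveolar and hormone-sensing markers tested, 6 of 10, 5 of 5 and 5 of 8 were lower under the basal label, with 1, 3 and 2 past the threshold, and Areg rose. Under the luminal label 7 of 12 basal markers were lower, 4 of them past the threshold, led by Lgr5 at -2.67 and Oxtr at -2.15, and Krt17 rose by 1.67. There 3 of 11 fibroblast, 7 of 10 luminal, 3 of 5 alveolar and 5 of 8 hormone-sensing markers were lower, with 1, 1, 2 and 3 past the threshold, and Cldn4, Aldh1a3 and Ly6a rose. Of all 17787 genes tested, 8728 were lower with baicalin under the basal label, and 3.33% fell past the threshold. Under the luminal label 9670 were lower, and 1.59% fell past it. The part of the marker lists in the values of H19 was not tested.

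Igf2, the paternally expressed growth factor that shares its enhancers with H19, had FPKM values near 0. Igf2 (ENSMUSG00000048583, chromosome 7, 142650766 to 142666816, minus strand) was listed at 0, 0.0172, 0.0271 and 0 FPKM in the libraries labelled basal with DMSO and with baicalin and labelled luminal with DMSO and with baicalin. Behind these values were 0, 2, 3 and 0 fragments, so no ratio is given. A count of 0 allows up to 3 fragments, which for Igf2 is 0.0254 to 0.0271 FPKM in these libraries, so a difference in Igf2 was not detectable at this depth. Igf2 lies 72.6 kb from H19. The gene model Gm49394 overlaps Igf2 on its strand and shares 3598 of its 5723 exon bases. Fragments from that stretch may have been counted for neither gene, so these values do not settle the level of Igf2 RNA.

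The other genes around H19 gave no call with baicalin. Of the 20 genes within 200 kb of H19, 5 were tested. Mrpl23, a mitochondrial ribosomal protein gene and at 34.8 kb the nearest of the 5, had log2 changes of 0.50 under the basal label and -0.10 under the luminal label. Ctsd, the gene of the lysosomal protease cathepsin D at 187.5 kb, had 0.40 and 0.45. Lsp1, Tnni2 and Syt8 had -0.15, -0.46 and -0.39 under the basal label and 0.32, 0.52 and 0.95 under the luminal label. Between the labels with DMSO, Syt8 and Tnni2 were lower in the library labelled luminal, at -2.00 and -1.40.

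The genes whose profile over the 4 libraries was nearest to that of H19 were sought among the 9185 genes that reached 5 FPKM in a library. Likeness was the Euclidean distance between centred log2(FPKM + 1) values. The nearest were Aurka, Plk1, Kif2c, Anln and Tmem213, at distances of 0.458, 0.512, 0.515, 0.529 and 0.550, where the profile of H19 itself had a length of 2.07. Aurka and Plk1 encode mitotic kinases, Kif2c a mitotic kinesin and Anln the cytokinesis protein anillin. Aurka stood at 17.3, 2.32, 8.98 and 6.30 FPKM in the libraries labelled basal with DMSO and with baicalin and labelled luminal with DMSO and with baicalin. Plk1 stood at 25.1, 2.47, 16.1 and 9.12 FPKM. Both were highest in the library labelled basal with DMSO and lowest in the library labelled basal with baicalin, the order that H19 also had. The likeness depends on the 1 FPKM added, which holds back changes at low FPKM, and it was not recomputed with less added. In plain FPKM H19 was 47.3-fold lower with baicalin under the basal label, a larger fall than that of Aurka or Plk1. Tmem213 had 1 fragment in the library labelled basal with baicalin. The likeness rests on 4 libraries and carries no test.

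H19 holds the miRNA gene Mir675 on its own strand. Its mature forms are shown because H19 was called lower with baicalin under both labels. They were taken from RefSeq on GRCm38.p6, with the seed, bases 2 to 8, in capitals. The libraries were made from RNA selected for poly(A) tails, so the mature forms themselves were not measured. miR-675-5p lies at chr7:142577112-142577133 and miR-675-3p at chr7:142577078-142577099, both on the minus strand:
miR-675-5p: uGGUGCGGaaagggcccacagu
miR-675-3p: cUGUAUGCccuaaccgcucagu

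Cdkn1c encodes the CDK inhibitor p57, which is maternally expressed and slows the cell cycle. Cdkn1c (ENSMUSG00000037664, chromosome 7, 143458339 to 143461050, minus strand) stood at 0.148 FPKM with DMSO and 3.12 FPKM with baicalin under the basal label, and at 0.203 and 0.238 FPKM under the luminal label. These values rest on 6, 129, 8 and 10 fragments. Cdkn1c was high in a single library, that labelled basal with baicalin, and had 10 fragments or fewer in each of the others. It rose by 1.84 on the log2 scale under the basal label, an FPKM ratio of 21.1 (95% interval 9.41 to 58.4). Under the luminal label the change was 0.04 and the ratio 1.17 (95% interval 0.416 to 3.42), so that no difference was detectable at this depth. Whether the change differed between the labels was not tested.

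The list of CDK inhibitors sets Cdkn1c in its family. Of 7 CDK inhibitor genes, Cdkn1c among them, 2 rose (Cdkn1c and Cdkn1a) and 1 fell with baicalin under the basal label. Under the luminal label 1 rose and 1 fell. Cdkn1c was chosen with its values known, so nothing is read from these counts beside the shares. The shares of all genes were 2.15% and 3.33% under the basal label and 2.37% and 1.59% under the luminal label. The median log2 change of the 7 was 0.08 and -0.10, against 0.01 and -0.02 over all genes tested. Cdkn1a, which encodes p21, stood at 29.0 and 106 FPKM under the basal label and at 24.7 and 72.8 FPKM under the luminal label, and it rose under both, by 1.84 and 1.52. Cdkn2a was lower with baicalin under the basal label at -1.23, and Cdkn2c under the luminal label at -1.17. Cdkn2b, at 0.84 under the luminal label, did not reach the threshold. In FPKM, Cdkn1c with baicalin under the basal label was at 3.12 where Cdkn1a was at 106.

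The genes beside Cdkn1c on chromosome 7 belong to the same imprinted domain or lie at its edge. Of 22 genes within 200 kb, 9 were tested. Slc22a18, an imprinted transporter gene 12.7 kb from Cdkn1c, stood at 1.33 and 7.89 FPKM under the basal label and rose by 1.93, while under the luminal label it stood at 1.06 and 2.45 FPKM with a change of 0.74. Kcnq1ot1, the noncoding RNA that silences this domain on the paternal copy, stood at 0.116 and 0.101 FPKM under the basal label and at 0.156 and 0.0655 FPKM under the luminal label. Its ratio with baicalin was 0.874 (95% interval 0.715 to 1.07) under the basal label and 0.420 (95% interval 0.338 to 0.520) under the luminal label, on 281 and 126 fragments, although its log2 changes were -0.02 and -0.12 at this low FPKM. Kcnq1ot1 is antisense to Kcnq1, so the split of fragments between them is uncertain. Phlda2, an imprinted gene that restrains placental growth, had changes of 0.29 and 0.74. Another 3 neighbours rose under the luminal label: Cars by 1.46, Tnfrsf22 by 1.35 and Tnfrsf26 by 1.14, at 96.2, 173.8 and 146.6 kb. None of these 3 was called under the basal label, where their changes were 0.68, 0.29 and 0.29.

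Grb10 encodes an adaptor that binds the insulin and IGF1 receptors and dampens their signal. It is expressed from the maternal copy in most tissues. Grb10 (ENSMUSG00000020176, chromosome 11, 11930508 to 12038683, minus strand) stood at 8.22 and 19.3 FPKM with DMSO and baicalin under the basal label and at 0.739 and 2.46 FPKM under the luminal label. These values rest on 1484, 3566, 130 and 462 fragments. Both libraries labelled basal were higher than both labelled luminal, and within each label the baicalin library was the higher. Grb10 rose by 1.14 under the basal label, a ratio of 2.35 (95% interval 2.21 to 2.50). Under the luminal label the change was 0.99 with a ratio of 3.33 (95% interval 2.74 to 4.08), just short of the threshold, which it passed with 0.1 FPKM or none added, after scaling to TPM and after centring. Between the labels Grb10 was lower by 11.1-fold with DMSO and 7.86-fold with baicalin in the library labelled luminal, at -2.41 and -2.56 on the log2 scale.

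Grb10 belongs to the genes of IGF signalling, of which 23 were listed and 16 tested. With baicalin 2 rose and 4 fell under the basal label, with a median log2 change of -0.39, and 1 rose and 1 fell under the luminal label, with a median of -0.10. Over all genes, 2.15% rose and 3.33% fell under the basal label, with a median of 0.01, and 2.37% rose and 1.59% fell under the luminal label, with a median of -0.02. Under the basal label the largest changes were those of the IGF binding protein genes Igfbp3, Igfbp5 and Igfbp7, at -1.66, -1.57 and -1.38. The other calls were Grb10, at 1.14, Irs2, an adaptor of the insulin receptor, at 1.37, and Pappa, a protease that cuts IGF binding proteins, at -1.07. Igfbp5 under the luminal label stood at 749 and 111 FPKM and fell by 2.75, Irs2 rose by 1.27, and Grb10 had 0.99. The receptors of the ligand that Igf2 encodes did not pass the threshold with baicalin: Igf1r had -0.52 and -0.13, and the imprinted Igf2r had -0.35 and 0.14. Igf1 itself stayed between 0.0299 and 0.115 FPKM in the 4 libraries.

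Peg3 is a paternally expressed zinc finger gene and was the most abundant member in 3 of the 4 libraries. Peg3 (ENSMUSG00000002265, chromosome 7, 6703892 to 6730431, minus strand) stood at 27.5 and 61.1 FPKM with DMSO and baicalin under the basal label and at 3.18 and 5.70 FPKM under the luminal label. These values rest on 7269, 16520, 820 and 1567 fragments, the most of any member in 3 of the libraries. Peg3 was high under the basal label and low under the luminal label, and within each label it was higher with baicalin. It rose by 1.13 under the basal label, a ratio of 2.23 (95% interval 2.16 to 2.29), and had a change of 0.68 under the luminal label, a ratio of 1.79 (95% interval 1.65 to 1.95). In the library labelled luminal it was 8.64-fold lower with DMSO and 10.7-fold lower with baicalin, at -2.77 and -3.21 on the log2 scale.

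Usp29, whose promoter faces that of Peg3 at a distance of 0.147 kb, stood at 0.359 and 0.518 FPKM under the basal label and at 0.0171 and 0.0536 FPKM under the luminal label. It was therefore higher under the basal label, as Peg3 was, at levels far under those of Peg3. Zim1 on the other side, 7.44 kb away, reached at most 0.0319 FPKM in the 4 libraries.

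Peg3 and Grb10 passed the threshold as higher under the basal label with both treatments, and other marker lists differed between the labels too. Schwann cell markers, 4 genes led by Sox10, summed to 24.0 and 23.5 FPKM under the basal label and 14.9 and 9.71 FPKM under the luminal label. Without Sox10, which mammary epithelial cells also express, the sum was 0.376, 0.653, 2.29 and 0.530 FPKM. Alveolar luminal markers summed to 203, 111, 65.8 and 170 FPKM, led by Aldh1a3, with Wap at 0 in all libraries, and to 29.6, 13.5, 19.4 and 7.06 FPKM without Aldh1a3. Hormone-sensing luminal markers, led by Areg under the basal label and by Ly6a under the luminal label, summed to 125, 188, 76.1 and 124 FPKM, and to 61.8, 29.7, 54.7 and 86.2 FPKM without Areg. In both lists the order of the libraries was another without that gene. Immune markers summed to 7.86, 51.6, 4.54 and 13.8 FPKM, nearly all of it Cd68, a lysosomal protein gene. Without Cd68 they summed to at most 0.370 FPKM. The part of these lists in the values of Peg3, Grb10 and Cdkn1c was not tested.

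Promoters were taken from RefSeq on GRCm38.p6, which held 8 of the 10 members with 15 promoters of 300 bases. H19 and Cdkn1c were not among them. Of the 15, 12 held more CG pairs than the median of 7 over 32851 promoters. Of all promoters, 51.4% held 7 or fewer. Promoters of the same gene are not separate cases. Those of Mest starting at 30737800 and 30737803 overlap and hold 17 CG pairs each. Nothing is read from the count beside the share. The upstream promoter of Grb10 held 45 CG pairs, more than in 98.1% of all promoters, with a GC content of 80.0%, and its downstream promoter held 9. The promoter of Peg3 held 13, and that of Plagl1 26. The 250 bases before the start of Peg3 and of the upstream start of Grb10 are shown, with CG pairs in capitals, because both genes were higher with baicalin under both labels. No methylation was measured in these libraries. The 250 bases shown hold 8 CG pairs for Peg3 and 40 for Grb10. They lie at chr7:6730420-6730669 for Peg3 and at chr11:12037421-12037670 for Grb10, both on the minus strand:
Peg3: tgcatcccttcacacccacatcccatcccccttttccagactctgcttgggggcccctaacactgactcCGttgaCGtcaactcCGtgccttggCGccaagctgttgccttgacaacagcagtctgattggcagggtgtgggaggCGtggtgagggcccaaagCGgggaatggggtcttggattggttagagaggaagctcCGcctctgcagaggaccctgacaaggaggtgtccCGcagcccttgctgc
Grb10: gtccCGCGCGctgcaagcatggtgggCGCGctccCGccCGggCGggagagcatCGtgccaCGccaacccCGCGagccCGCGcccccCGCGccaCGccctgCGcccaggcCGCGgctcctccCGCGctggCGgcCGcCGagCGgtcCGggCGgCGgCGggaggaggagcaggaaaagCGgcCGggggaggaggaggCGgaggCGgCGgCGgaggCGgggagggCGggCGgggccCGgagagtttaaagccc

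Plagl1 is a paternally expressed zinc finger gene, known to slow the cell cycle and to regulate other imprinted genes. Plagl1 (ENSMUSG00000019817, chromosome 10, 13060504 to 13131694, plus strand) stood at 0.844 and 1.24 FPKM with DMSO and baicalin under the basal label and at 7.16 and 3.94 FPKM under the luminal label. These values rest on 131, 196, 1083 and 636 fragments. Plagl1 was high under the luminal label and low under the basal label. Its changes with baicalin did not pass the threshold and had opposite signs: 0.28 under the basal label, a ratio of 1.47 (95% interval 1.17 to 1.84), and -0.72 under the luminal label, a ratio of 0.551 (95% interval 0.498 to 0.608). Between the labels it was higher by 2.15 with DMSO and by 1.14 with baicalin, ratios of 8.48 and 3.19.

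Mest, also called Peg1, is a paternally expressed gene of the hydrolase fold family that is active in growing mesoderm and fat. Mest (ENSMUSG00000051855, chromosome 6, 30723547 to 30748465, plus strand) stood at 0.192 and 0.987 FPKM under the basal label and at 4.78 and 3.29 FPKM under the luminal label, on 15, 79, 365 and 268 fragments. Mest was high under the luminal label, and under the basal label it was lowest with DMSO. Its change with baicalin was 0.74 under the basal label, a ratio of 5.16 (95% interval 2.94 to 9.64), and -0.43 under the luminal label, a ratio of 0.688 (95% interval 0.586 to 0.808), neither past the threshold. The change under the basal label passed it with 0.1 FPKM or none added and with TPM. Between the labels the difference was 2.28 with DMSO and 1.11 with baicalin.

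Mest overlaps Copg2 on the opposite strand, and 912 bases are shared between the transcripts of the pair. The strand setting of the authors' counting is not given in the sources used here, so the fragments of that stretch are uncertain. Copg2 was above Mest in each library, at 15.4, 17.9, 20.9 and 17.8 FPKM, with changes of 0.20 and -0.22. Mest also holds Mir335 on its own strand, and its mature forms are shown because Mest, like H19, carries a miRNA gene and was measured well above its floor. miR-335-5p lies at chr6:30741314-30741336 and miR-335-3p at chr6:30741354-30741375, both on the plus strand. No seed was shared among the 4 mature forms of Mir675 and Mir335:
miR-335-5p: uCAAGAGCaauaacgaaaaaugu
miR-335-3p: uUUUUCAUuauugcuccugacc

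Ndn encodes necdin, a paternally expressed gene that restrains cell division in neurons. Ndn (ENSMUSG00000033585, chromosome 7, 62346569 to 62350262, plus strand) stayed low, at 0.0682 and 0.107 FPKM under the basal label and 0.196 and 0.459 FPKM under the luminal label, on 5, 8, 14 and 35 fragments. Under the luminal label its ratio with baicalin was 2.34 (95% interval 1.23 to 4.72). Under the basal label the ratio was 1.57 (95% interval 0.452 to 6.08), so no difference was detectable there.

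The summed FPKM of fibroblast markers was higher under the luminal label, where Plagl1 and Mest were higher too. Of 11 fibroblast markers, 5 were higher and 6 lower in the library labelled luminal with DMSO, and 10 were higher with baicalin. Of all 17787 genes tested, 9340 and 8046 were higher. Their sum was 48.9 and 16.6 FPKM under the basal label and 293 and 181 FPKM under the luminal label, most of it Postn. Without Postn it was 8.03, 3.16, 17.2 and 14.1 FPKM. With DMSO most of that 17.2 FPKM was Pdgfra and Fbln1, at 6.30 and 5.50 FPKM under the luminal label and 0.593 and 0.277 FPKM under the basal label. The part of these markers in the values of Plagl1 and Mest was not tested. Endothelial markers summed to 1.79, 1.42, 2.32 and 4.75 FPKM, and skeletal muscle markers to 1.43, 1.15, 2.42 and 1.01 FPKM with Myod1 at 0 in all libraries.

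Meg3 and Dlk1 form a pair on chromosome 12 like that of H19 and Igf2: Meg3 is a maternally expressed long noncoding RNA and Dlk1 a paternally expressed membrane protein gene that holds back fat cell differentiation. Meg3 (ENSMUSG00000021268, chromosome 12, 109541001 to 109571726, plus strand) stood at 0.0139 and 0.0027 FPKM under the basal label and at 0.237 and 0.0080 FPKM under the luminal label, on 5, 1, 83 and 3 fragments. Its fragments were thus nearly all in the library labelled luminal with DMSO. There the ratio of baicalin to DMSO was 0.0337 (95% interval 0.00685 to 0.103), or 29.6-fold lower, although the log2 change on the scale used was only -0.30 because the FPKM was low. Under the basal label the ratio was 0.194 (95% interval 0.00414 to 1.75), so no difference was detectable. Dlk1 (ENSMUSG00000040856, chromosome 12, 109452823 to 109463336, plus strand) was listed at 0.0089 FPKM, 1 fragment, in the library labelled basal with DMSO and at 0 in the other 3.

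Rian and Mirg, noncoding RNAs that follow Meg3 on the same strand, were low as well. Rian had 5, 0, 66 and 1 fragments and Mirg 2, 0, 4 and 0. Summed over Meg3, Rian and Mirg, the libraries held 12, 1, 153 and 4 fragments. The sum was 40.8-fold lower with baicalin under the luminal label (95% interval 15.6 to 152). Under the basal label it was 12.3-fold lower on 12 and 1 fragments (95% interval 1.81 to 524). Adipocyte markers, 5 genes led by Fabp4, summed to 0.163 and 0.884 FPKM under the basal label and to 16.1 and 5.40 FPKM under the luminal label. Adipoq, a defining gene of adipocytes, stood at 0.0729, 0, 4.15 and 0.561 FPKM. No marker of this list was at 0 in all 4 libraries, but Adipoq, Cfd, Lep and Plin1 were each at 0 in at least 1. Lep had a single fragment, in the library labelled luminal with DMSO. Their part in the values of Meg3 was not tested.

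**Figure D2:**
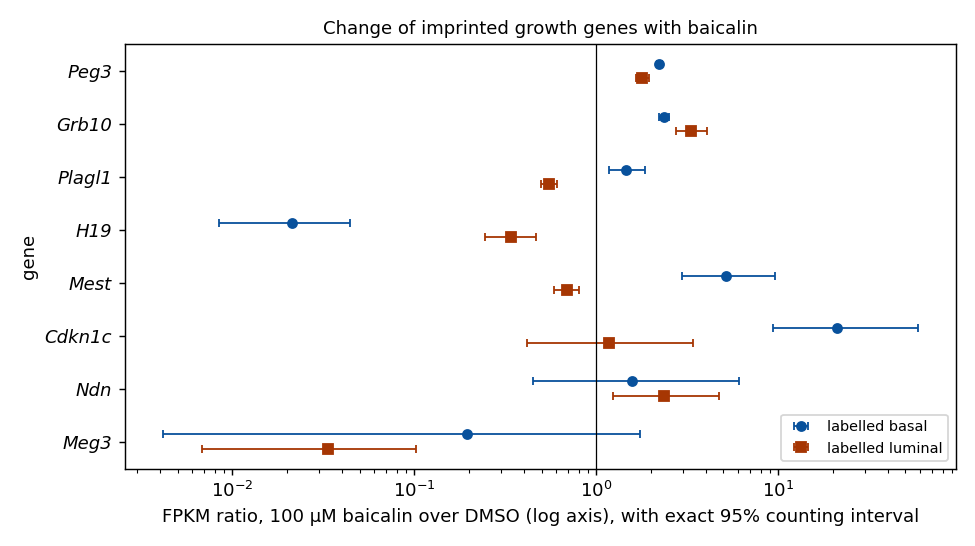
FPKM ratio of baicalin to DMSO for the 8 members above 0 in all libraries, on a log axis, with circles for libraries labelled basal, squares for those labelled luminal and bars for exact 95% intervals that cover counting error only. H19 lay at 0.0211 and 0.339, under 1 for both labels, while Peg3 and Grb10 lay above 1 for both.

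Within each library the members could be ordered by FPKM, with exact intervals on the ratio of neighbours in that order. In the library labelled basal with DMSO the order was Peg3, Grb10, H19, Plagl1, Mest, Cdkn1c, Ndn, Meg3 and Dlk1. Mest and Cdkn1c, Cdkn1c and Ndn, and Meg3 and Dlk1 did not differ beyond counting error there. With baicalin under the basal label the order was Peg3, Grb10, Cdkn1c, Plagl1, Mest, H19, Ndn, Igf2 and Meg3, so H19 went from place 3 to place 6 and Cdkn1c from place 6 to place 3. Plagl1 and Mest, H19 and Ndn, and Igf2 and Meg3 did not differ beyond counting error.

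The order was another under the luminal label. With DMSO it ran Plagl1, Mest, H19, Peg3, Grb10, Meg3, Cdkn1c, Ndn and Igf2, and H19 and Peg3 could not be told apart (95% interval of their ratio 0.839 to 1.20), nor could Meg3, Cdkn1c and Ndn in turn. With baicalin it ran Peg3, Plagl1, Mest, Grb10, H19, Ndn, Cdkn1c and Meg3, and Ndn and Cdkn1c could not be told apart. Over the 4 libraries 6 of the 10 members reached 1 FPKM in a library, 4 reached 5 FPKM, and 1, Peg3, was at 1 FPKM or more in all.

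The members were set beside a longer list of 70 imprinted genes, of which 69 were found and 47 tested. Of these 69, 33 reached 1 FPKM in a library and 9 were at 0 in all. With baicalin under the basal label 5 rose and 3 fell of 47, against 2.15% and 3.33% of all genes. Under the luminal label H19 alone was called, at the edge of the threshold, against 2.37% and 1.59%. After centring, H19 was lost there and Grb10 was called instead. There the count was 7 with 0.1 FPKM added and 5 with TPM. It was 18 with none added, where the filter changed too, and 0 with a threshold of 2. The median log2 change was 0.03 and 0.04, against 0.01 and -0.02 over all genes tested. Without the 10 members, 39 were tested, with 2 rises and 2 falls under the basal label and none under the luminal label.

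Outside the members, the rises under the basal label were those of Slc22a18 at 1.93 and of Zrsr1, a splicing factor gene, at 1.05. Zrsr1 stood at 5.67 and 12.8 FPKM. The falls were those of Smoc1 and Nnat. Smoc1, which encodes a secreted matrix protein, stood at 17.1 and 0.818 FPKM under the basal label and fell by 3.32, a ratio of 0.0478 (95% interval 0.0361 to 0.0623), while under the luminal label it stood at 2.20 and 1.09 FPKM with -0.61. Nnat, the gene of neuronatin, stood at 3.80 and 0.539 FPKM and fell by 1.64, and under the luminal label it had 0.17.

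Between the labels with DMSO, 3 of the 47 imprinted genes tested were higher and 8 lower in the library labelled luminal by more than the threshold, against 4.71% and 3.86% of all genes. The 3 that were higher in the library labelled luminal were Mest, Plagl1 and Begain, the last at 1.53. The 8 that were lower were Peg3, Smoc1 at -2.50, Grb10, Ppp1r9a at -1.49, Nnat at -1.38, Snrpn at -1.26, Phlda2 at -1.24 and Igf2r at -1.16. With baicalin 2 were higher and 6 lower, against 5.24% and 2.99% of all genes: Mest and Plagl1 were higher, and Peg3, Grb10, Cdkn1c, Ppp1r9a at -1.83, Slc22a18 at -1.37 and Airn at -1.36 were lower. Airn is antisense to Igf2r, so the split of fragments between that pair is uncertain. The median difference between the labels was -0.12 with DMSO and -0.05 with baicalin, against 0.01 and -0.03 over all genes.

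Genes that regulate imprints were listed as 21, of which 18 were tested. They included DNA methyltransferases, the proteins that guide them and, acting the other way, Tet1, Tet2 and Tet3, which remove DNA methylation. With baicalin 17 of 18 had a negative log2 change under each label, with medians of -0.17 and -0.31, where 8728 and 9670 of all 17787 genes did, with medians of 0.01 and -0.02. Of the 18, 3 fell under the basal label, against 3.33% of all genes, 1 fell under the luminal label, against 1.59%, and none rose. The falls under the basal label were those of Uhrf1, which brings the maintenance methyltransferase to newly copied DNA, by 2.59, Hells, a chromatin remodeller, by 1.78, and Dnmt1, the maintenance methyltransferase, by 1.17. Uhrf1 also fell under the luminal label, by 1.10, while Dnmt1 had -0.84 and Hells -0.74. Uhrf1 stood at 22.0 and 2.81 FPKM under the basal label and at 25.3 and 11.2 FPKM under the luminal label. Whether the methylation of any member differed was not measured.

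Across all members, 203 other genes lay within 200 kb, of which 30 were tested. With baicalin 1 rose and 1 fell under the basal label, Slc22a18 and, 121.5 kb from Grb10, Fignl1 at -1.66, and under the luminal label 3 rose and none fell. Of all genes 2.15% rose and 3.33% fell under the basal label, and 2.37% and 1.59% under the luminal label. Between the labels none of the 30 was higher in the library labelled luminal, and 5 were lower with DMSO and 2 with baicalin. Of all genes 4.71% were higher and 3.86% lower with DMSO, and 5.24% and 2.99% with baicalin. The neighbours of Mest, Plagl1, Peg3 and Ndn gave no call in any of the 4 comparisons. Only 4, 6, 2 and 1 of them were tested, too few to read anything from that. H19, Peg3, Grb10, Ndn, Plagl1 and Dlk1 shared no stretch of 200 bases at 95% identity with another gene. Igf2 shared 3598 bases with Gm49394, Meg3 842 with Gm27000 and 805 with Gm26906, and Cdkn1c 422 with Gm44732, all of which were listed at 0 in all 4 libraries.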

How the data were processed

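RNA was measured by sequencing in 4 libraries, 1 per group, made with oligo(dT) selection and a stranded kit. According to the methods of the study, HISAT2 was run against GRCm38 and featureCounts 1.5.0 on the annotation of Ensembl release 94, from which the authors computed the deposited FPKM values. The submitters' processing notes also name Bowtie 0.12.2 and the build mm8, and whether featureCounts was run by strand is not stated in the sources used here, so antisense and overlapping genes are uncertain. Positions and exon lengths of 54409 of the 54446 genes were read from GENCODE release 21 for mouse, which uses GRCm38. FPKM multiplied by exon length fell on whole fragments, which gave the depth of each library. Between 98.3% and 98.6% of low genes lay within 0.05 of a whole fragment.

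Genes above 0 FPKM in all 4 libraries were tested, 1 FPKM was added, and a log2 change past 1 was called. Ratios carry exact Clopper-Pearson 95% intervals and were given where a library had more than 3 fragments. Alternatives were 0.1 FPKM or none added, other filters (none, above 0 in the 2 libraries compared, at least 1 FPKM in a library, at least 10 fragments), scaling to TPM, centring on the median, and a threshold of 2. The 14 gene lists held 197 entries, of which 196 were found by symbol. The members and lists were chosen with earlier results of these data known. Genes were named by a rule: all members, all imprinted genes called, the 3 largest changes of each other list in the comparisons described (marker lists given by their sums name their most abundant gene), and the 5 profiles nearest to H19. Neighbouring genes, Rian, Mirg, Irs2, Pappa, Igf1, Igf1r, Kcnq1ot1, Pgr, Esr1, Cdh1, Cldn4, Ly6a and Adipoq were named after their values were seen. The same holds for Wnt4, Prlr, Plin1, Lep and Cfd, and for the opposite changes listed at the end. The steps were tested on simulated data. Software was Python 3.11.15 with scipy 1.17.1, pandas 2.3.3, numpy 2.4.6 and, for the plots, matplotlib 3.10.9.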

Additional observations from a re-analysis of the deposited data

Results flagged for a closer look

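Of 85 genes of the member, imprinting, IGF, CDK inhibitor and imprint-keeping lists with an FPKM above 0 in all 4 libraries, 8 had changes with baicalin of opposite sign under the basal and the luminal label, with both counting intervals away from a ratio of 1. That is 9.41%, against 10.6% of all 17781 such genes with a known exon length. With 1 library per group the difference between the labels was not tested. Among the members these were Mest, with log2 changes of 0.74 under the basal label and -0.43 under the luminal label, a difference of -1.17, and Plagl1, with 0.28 and -0.72, a difference of -1.002. Copg2, which overlaps Mest on the other strand, had 0.20 and -0.22, a difference of -0.42. The noncoding Peg13 had 0.27 and -0.18, a difference of -0.45.

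The other 4 were lower with baicalin under the basal label and higher under the luminal label. Atp10a, a phospholipid transporter gene, had -0.80 and 0.19, a difference of 0.99. Dcn, the gene of the matrix protein decorin, had -0.35 and 0.74, a difference of 1.09. Dcn is also a fibroblast marker, and of the 11 such markers 10 were lower under the basal label and 8 were higher under the luminal label. Their part in its values was not tested. Igf2r, the receptor that clears the ligand of Igf2, had -0.35 and 0.14, a difference of 0.49. Igfbp4, an IGF binding protein gene, had -0.63 and 0.40, a difference of 1.03.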

How the results depend on the processing

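No paired analysis was run. Each comparison set 1 library against 1 other, and the basal and luminal labels were not fitted together. The labels name different cell populations, and no value was averaged over them. Of 72 recomputed counts of members or imprinted genes past the threshold, 51 stayed within 1.5 times. The counts moved as follows, with the main values being 4 members with baicalin under the basal label, 1 under the luminal label, 4 between the labels with DMSO and 5 with baicalin, and 8, 1, 11 and 8 genes of the imprinted list. With a threshold of 2 the members were 1 under the basal label, 0 under the luminal label and 2 between the labels with baicalin, and the imprinted genes were 2, 0, 5 and 2. With 0.1 FPKM added, 3 members were called under the luminal label, and the imprinted genes were 7 under the luminal label, 19 between the labels with DMSO and 16 with baicalin. With none added, 4 members were called under the luminal label, 7 between the labels with DMSO and 8 with baicalin, and the imprinted genes were 16, 18, 27 and 22. With TPM, 2 members and 5 imprinted genes were called under the luminal label, and 13 imprinted genes between the labels with baicalin. After centring, H19 was lost and Grb10 gained under the luminal label, so that the count stayed at 1. A threshold of 2 lets fewer pass by its construction. Adding less than 1 FPKM moves every log2 change further from 0, so that more pass, again by construction. With TPM, 1 TPM was added. The FPKM of a library summed to 275042 to 296479, so that 1 TPM stood for less than 1 FPKM. How far the scaling itself moved the TPM counts was not tested. With none added the filter changed as well, to genes above 0 in the 2 libraries compared.

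Over all genes, rises and falls with baicalin under the basal label numbered 383 and 592, and 41 and 132 with a threshold of 2, 1123 and 1302 with 0.1 FPKM added, 1868 and 2341 with none, and 696 and 1002 with TPM. Under the luminal label they numbered 421 and 282, and 60 and 46, 1052 and 913, 1976 and 2175, and 718 and 578 in the same order. Between the labels with DMSO they numbered 837 and 686, and 185 and 150, 2027 and 1467, 3392 and 2099, and 1306 and 1279. With baicalin they numbered 932 and 531, and 242 and 59, 2030 and 1327, 2899 and 2402, and 1439 and 1083. That filter alone, with 1 FPKM added, gave 389 and 595, 452 and 318, 883 and 691, and 937 and 540 in the 4 comparisons. Depth limited Igf2, Dlk1, Meg3, Ndn, Cdkn1c and H19, which had 10 fragments or fewer in at least 1 library.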
